A study of Mus musculus with 6 samples.

Results

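The genes described here are 33 genes of cholesterol and fatty acid synthesis: the sterol sensors that control the pathway, the enzymes of both routes, and carriers and pumps that move sterols. They were chosen by name from a list of the pathway and not by a rule on their values. Earlier results of these data were known when they were chosen. All 33 were measured, among 18193 genes in all, through 81 probe sets that are annotated to exactly 1 gene. The study compared the transcriptome of regulatory T (Treg) cells, the Foxp3-expressing cells that restrain immune responses, with and without Batf, an AP-1 family member that binds DNA together with Jun proteins. Both groups were C57BL/6 mice carrying a human CD2 reporter of Foxp3 (FoxP3hCD2), one with intact Batf (Batf+/+) and the other lacking it (Batf-/-), and each gave 3 arrays. CD4+ cells positive for human CD2 were sorted from lymph node and spleen and went to RNA extraction with neither culture nor treatment. The age of the mice, whether animals were pooled and in which cells Batf was deleted are not given in the sources used here, so a p-value here reflects only how far these arrays spread, and some of that may be technical.

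Animal cells make cholesterol from acetyl-CoA through mevalonate, farnesyl diphosphate and squalene, and fatty acids from malonyl-CoA. The SREBP transcription factors switch on both routes: when membranes are poor in sterol, the escort protein SCAP carries SREBP from the endoplasmic reticulum to the Golgi, where it is cut and released, and when sterol is plentiful INSIG proteins hold it back. When cholesterol accumulates, LXR receptors switch on the pumps ABCA1 and ABCG1 instead. In T cells the SREBP route is known to be raised during activation and division, and the mevalonate route is known to be needed for Treg function.

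All values are on the log2 scale, counted from the middle Batf+/+ value of each probe set and averaged over the probe sets of a gene. They give differences between arrays and not the abundance of a transcript, so no gene is set against another in level, and the Treg identity of the cells could not be checked by the level of its markers. Of 6 measured Treg and T cell markers 0 were called, where 1.14% of all genes were. The genotypes were separated on all 6 arrays, in either direction, by 4 of the 6 markers and by 12.04% of all genes. Foxp3 (log2 difference, Batf-/- minus Batf+/+, -0.12 ± 0.08 SE, limma adjusted p = 0.892, n = 3 per genotype), Ikzf2 (-0.51 ± 0.10, adjusted p = 0.053) and Cd3e (-0.09 ± 0.07, adjusted p = 0.952) were lower on all 3 Batf-/- arrays, and Il2ra (0.21 ± 0.07, adjusted p = 0.394) was higher. Ctla4 (-0.25 ± 0.17) and Cd4 (0.01 ± 0.08) overlapped. Their part in the values of the 33 genes was not tested. Batf was at -0.13, 0.00 and 0.14 on the Batf+/+ arrays and at -3.13, -3.16 and -2.37 on the Batf-/- arrays, so its probe set followed the labels on all 6 arrays. In bulk RNA, fewer cells of a type and less RNA per cell cannot be told apart.

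Promoters of 25 of the 33 genes were matched by symbol in a RefSeq table (build GRCm38.p6), as 35 windows around annotated start sites. The upstream part of 5 of them is shown because they belong to the sterol enzymes, the group with the most even pattern: Hmgcs1 (chr13:119690101-119690350, plus strand), Idi1 (chr13:8885356-8885605, plus strand), Nsdhl (chrX:72918271-72918520, plus strand) and Cyp51 (chr5:4104698-4104947, minus strand) had the smallest unadjusted p among the sterol enzymes that were below 0 and have a promoter in the table, and Pmvk (chr3:89454291-89454540, plus strand, the most upstream of its 2 start sites) was the only sterol enzyme above 0. Each is given 5′ to 3′ on the strand of the gene and ends at the last base before the start site. Capitals mark matches, on either strand, to TCACNCCAC, a form of the sterol regulatory element that SREBP binds, and to CCAAT, the box bound by NF-Y, a known partner of SREBP.
Hmgcs1: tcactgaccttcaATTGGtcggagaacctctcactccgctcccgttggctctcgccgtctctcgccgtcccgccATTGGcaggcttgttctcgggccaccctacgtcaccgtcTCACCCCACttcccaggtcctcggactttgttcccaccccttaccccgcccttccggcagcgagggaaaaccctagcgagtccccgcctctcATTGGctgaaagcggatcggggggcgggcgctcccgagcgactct
Idi1: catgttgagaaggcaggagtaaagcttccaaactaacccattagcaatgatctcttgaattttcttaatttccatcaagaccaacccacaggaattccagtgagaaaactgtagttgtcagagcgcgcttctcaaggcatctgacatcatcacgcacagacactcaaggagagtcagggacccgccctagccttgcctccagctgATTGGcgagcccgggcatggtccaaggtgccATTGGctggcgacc
Nsdhl: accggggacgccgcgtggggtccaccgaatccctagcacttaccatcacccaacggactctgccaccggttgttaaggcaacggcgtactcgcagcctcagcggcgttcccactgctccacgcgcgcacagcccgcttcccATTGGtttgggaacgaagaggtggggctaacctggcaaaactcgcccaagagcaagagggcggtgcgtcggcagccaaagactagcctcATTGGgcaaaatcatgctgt
Cyp51: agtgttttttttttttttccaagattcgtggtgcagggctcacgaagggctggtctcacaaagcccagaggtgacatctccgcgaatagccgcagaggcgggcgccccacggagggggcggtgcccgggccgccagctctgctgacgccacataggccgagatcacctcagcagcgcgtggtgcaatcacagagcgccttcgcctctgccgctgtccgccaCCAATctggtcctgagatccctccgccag
Pmvk: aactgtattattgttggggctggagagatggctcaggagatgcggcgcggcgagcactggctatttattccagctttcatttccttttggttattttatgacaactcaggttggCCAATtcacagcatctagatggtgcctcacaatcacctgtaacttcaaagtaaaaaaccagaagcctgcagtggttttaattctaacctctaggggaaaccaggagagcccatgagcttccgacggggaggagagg

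A match to TCACNCCAC was found in the window of 1 of the 25 genes, Hmgcs1, where it covers bases -137 to -129 from the start site on the strand of the gene. Over the promoters of all genes in the table, 1.44% of 27025 genes have such a match. CCAAT was found in 20 of the 25 genes (80%), against 41.1% of all genes, and in each of the 11 sterol enzymes that were matched. A gene with several windows was counted if any of them matched. By window the share was 21 of 35 (60%), against 37.4% of all windows. The AP-1 motif TGANTCA, the kind of element that Batf binds with Jun partners, was found in 2 of the 25 genes (8%), Dhcr7 and Me1, in 1 window of each, against 8.97% of all genes. These matches describe letters in a window and are not evidence of binding.

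None of the 33 genes passed the test. At an adjusted p below 0.05 in limma, 0 of the 33 genes were called, where 1.14% of all genes were, and at an unadjusted p below 0.05 there was 1 (Stard4), where 7.69% of all genes passed. Differences were small throughout: they lay between -0.26 (Stard4) and 0.20 (Elovl5), with a median of -0.09 against 0.0047 over all genes, and 25 of the 33 genes were below 0, against 48.2% of all genes. Only Stard4 reached an absolute log2 difference of 0.2, a size reached by 10.2% of all genes. For each of the 33 genes the 95% interval of the difference, not adjusted for the number of genes, lay within a 1.5-fold change either way, as it did for 95.3% of all genes. The outermost bounds were 1.41-fold lower (Stard4) and 1.34-fold higher (Pmvk) in Batf-/- cells.

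**Figure D1:**
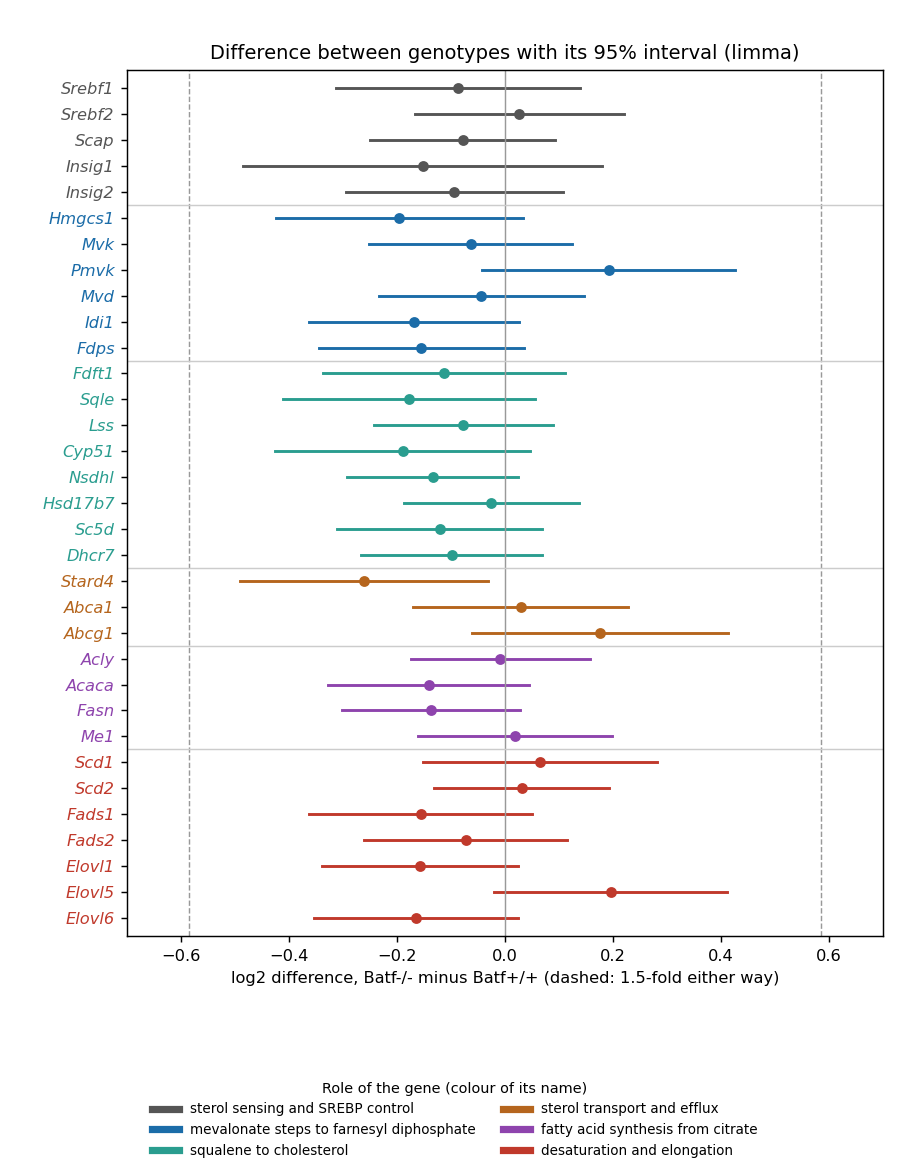
Log2 difference between genotypes (x axis, Batf-/- minus Batf+/+) of each of the 33 genes, with the 95% interval from limma as a line and the genes coloured by role. All intervals lie between the dashed lines at a 1.5-fold change, that of Stard4 lies wholly below 0, and 13 of the 14 sterol enzymes are left of 0.

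The genotypes were kept apart on all 6 arrays by 4 of the 33 genes. Nsdhl, Idi1, Dhcr7 and Fasn had all 3 Batf-/- arrays below all 3 Batf+/+ arrays, a separation in that direction found in 6.55% of all genes. The opposite separation was found in 0 of the 33 genes and in 5.5% of all genes. The plot of all values by array shows that in the other 29 genes the groups overlapped.

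**Figure D2:**
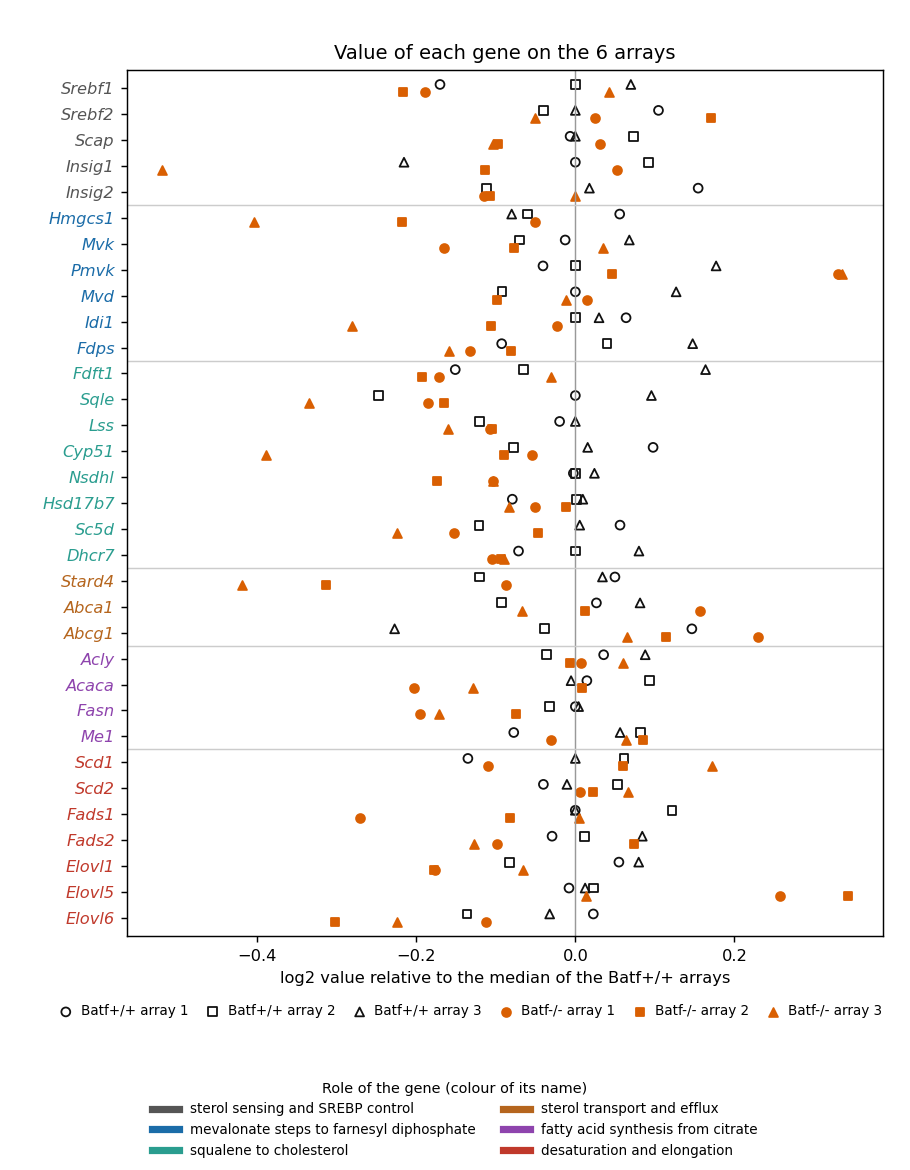
Log2 value, counted from the middle Batf+/+ value of each probe set (x axis), of each of the 33 genes on the 3 Batf+/+ arrays (open black symbols) and the 3 Batf-/- arrays (filled orange symbols), with the symbol shape giving the array number. Batf-/- array 3 (filled triangles) has the lowest points for Insig1 (-0.52), Stard4 (-0.42), Hmgcs1 (-0.40) and Cyp51 (-0.39). That of Hmgcs1 is drawn down by 1 of its 5 probe sets, at -1.11.

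Genes that sense sterol and control SREBP had a median log2 difference of -0.09, with 4 of the 5 genes below 0 and 0 called. Srebf2, which encodes the SREBP that mainly drives cholesterol genes, had the smallest difference of them, 0.03 ± 0.09 (SE, n = 3 per genotype, limma adjusted p = 0.9999, 95% interval -0.17 to 0.22). Srebf1, which encodes the SREBP of fatty acid genes, had one of -0.09 ± 0.10, the escort Scap one of -0.08 ± 0.08 and the retention protein Insig2 one of -0.09 ± 0.09.

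Insig1, the retention protein that is itself a target of SREBP, varied most. It was at 0.00, 0.09 and -0.22 on the Batf+/+ arrays and at 0.05, -0.11 and -0.52 on the Batf-/- arrays. The arrays numbered 3 were the lowest of each genotype, and the groups overlapped. The log2 difference of -0.15 ± 0.15 (SE, limma adjusted p = 0.988) had the largest standard error of the 33 genes and was 0.01 without Batf-/- array 3.

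The enzymes that build farnesyl diphosphate from mevalonate precursors had a median of -0.11, with 5 of the 6 genes below 0. Hmgcs1, the synthase that makes HMG-CoA at the entry of the route, was at 0.06, -0.06 and -0.08 on the Batf+/+ arrays and at -0.05, -0.22 and -0.40 on the Batf-/- arrays. Batf-/- arrays 2 and 3 were below every Batf+/+ array, and Batf-/- array 1 was among them. Its log2 difference was -0.20 ± 0.10 (SE, limma adjusted p = 0.782, 95% interval -0.42 to 0.03). Of its 5 probe sets, 4 lay close together at -0.19 to -0.21 with standard errors of 0.086 to 0.095. The remaining probe set gave a like difference of -0.19 but a standard error of 0.34. It was at 0.00, 0.01 and -0.61 on the Batf+/+ arrays and at 0.34, -0.39 and -1.11 on the Batf-/- arrays. The other 4 were at -0.19 to -0.12 on Batf-/- array 1 and at -0.33 to -0.10 on Batf-/- array 3. The array pattern of the averaged gene, its overlap included, therefore owes much to 1 probe set.

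Idi1, the isomerase that makes dimethylallyl diphosphate, was at 0.06, 0.00 and 0.03 on the Batf+/+ arrays and at -0.02, -0.11 and -0.28 on the Batf-/- arrays. Every Batf-/- array was below every Batf+/+ array, although Batf-/- array 1 by a narrow margin, and the log2 difference was -0.17 ± 0.09 (SE, limma adjusted p = 0.773). Fdps, which makes farnesyl diphosphate, had a difference of -0.16 ± 0.08 (adjusted p = 0.815), and both of its probe sets were low, at -0.17 and -0.14. The mevalonate kinase Mvk and the decarboxylase Mvd were closer to 0, at -0.06 ± 0.08 and -0.04 ± 0.08.

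Pmvk, the kinase that acts on phosphomevalonate, was the only sterol enzyme above 0. It was at -0.04, 0.00 and 0.18 on the Batf+/+ arrays and at 0.33, 0.05 and 0.33 on the Batf-/- arrays. Arrays 1 and 3 of the Batf-/- group were the highest of all 6, and array 2 lay within the Batf+/+ range. The difference of 0.19 ± 0.10 (SE, limma adjusted p = 0.816) rests on 1 probe set, whose suffix marks sequence shared between transcripts.

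The 8 enzymes from squalene to cholesterol were all below 0, between -0.19 and -0.03, with a median of -0.12 and 0 called. Cyp51, the demethylase of lanosterol, was at 0.10, -0.08 and 0.02 on the Batf+/+ arrays and at -0.05, -0.09 and -0.39 on the Batf-/- arrays. Only arrays 2 and 3 of the Batf-/- group were below the Batf+/+ range, array 2 just so. Its difference of -0.19 ± 0.10 (SE, limma adjusted p = 0.823) averages probe sets at -0.33, -0.29 and 0.05. Sqle, the squalene epoxidase that is a known control point of the route, had a difference of -0.18 ± 0.10 (adjusted p = 0.852) through 1 probe set.

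Nsdhl, a sterol dehydrogenase that acts in the removal of methyl groups, gave the tightest separation. It was at 0.00, 0.00 and 0.02 on the Batf+/+ arrays and at -0.10, -0.17 and -0.10 on the Batf-/- arrays. The groups did not overlap, but the difference was only -0.13 ± 0.07 (SE, limma adjusted p = 0.791), or 1.1-fold. Dhcr7, the reductase of the last step of one branch, was at -0.07, 0.00 and 0.08 against -0.10, -0.09 and -0.09, a difference of -0.10 ± 0.07 (adjusted p = 0.943), and its groups also did not overlap. Nsdhl and Dhcr7 each rest on 1 probe set.

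The squalene synthase Fdft1, the lanosterol synthase Lss, the desaturase Sc5d and the reductase Hsd17b7 lay at -0.11 ± 0.10, -0.08 ± 0.07, -0.12 ± 0.08 and -0.03 ± 0.07 (SE, n = 3 per genotype), and in each the genotypes overlapped. The 4 probe sets of Fdft1 gave -0.25, -0.24, -0.14 and 0.18, so they did not share a sign.

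Across the 14 sterol enzymes of both steps, 13 were below 0, with a median of -0.12. The lowest of the 6 arrays was Batf-/- array 3 for 8 of the 14 (57.1%), an array that was lowest for 14.2% of all genes, and the highest was Batf+/+ array 3 for 9 of the 14 (64.3%), an array that was highest for 21.2% of all genes. Between arrays of the same number the median difference of the sterol enzymes was -0.09 for number 1, -0.01 for number 2 and -0.18 for number 3, and that of all genes was -0.01, 0.02 and 0.00. Without Batf-/- array 3 there were still 13 of 14 below 0, with a median of -0.10, and without Batf+/+ array 3 there were 12, with a median of -0.08. The plot of the role groups by array shows the spread of these genes on each array.

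**Figure D3:**
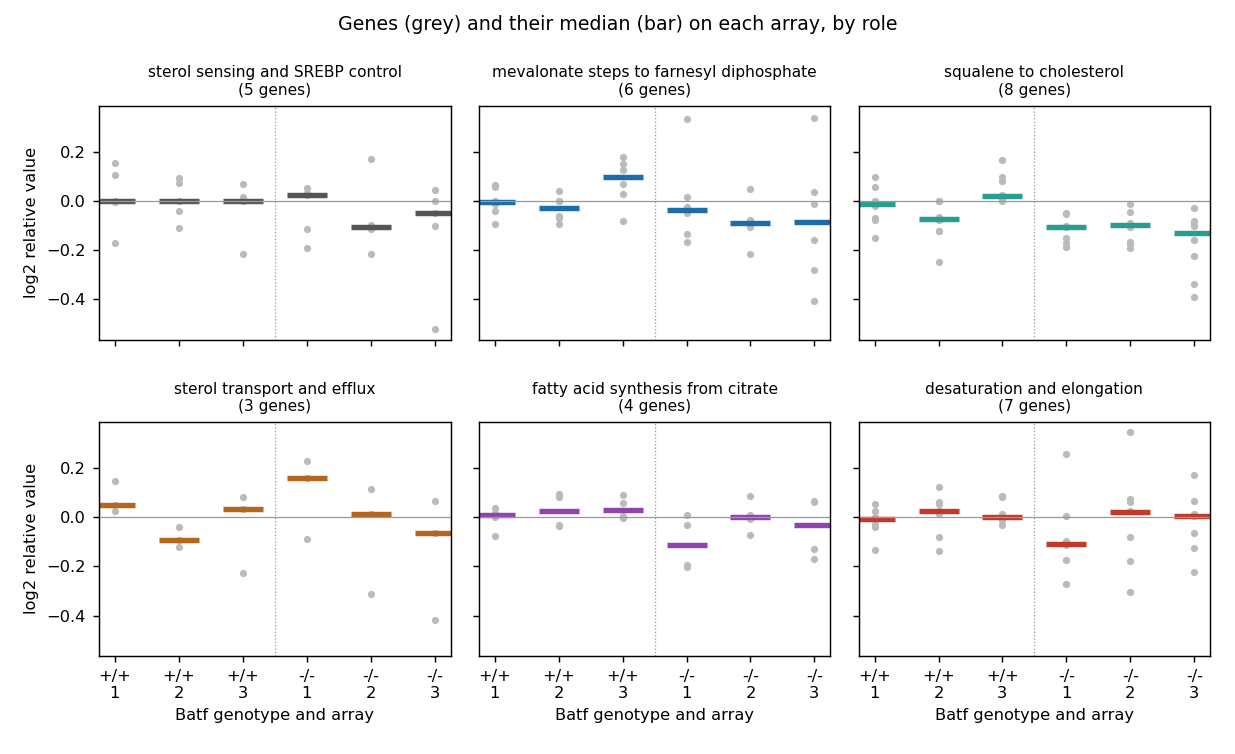
Log2 value, counted from the middle Batf+/+ value of each probe set (y axis), of the genes of each role (grey points) and their median (coloured bar) on each of the 6 arrays (x axis, genotype and array number). The enzymes from squalene to cholesterol have medians of -0.11, -0.10 and -0.13 on the Batf-/- arrays. On the Batf+/+ arrays they are at -0.01, -0.07 and 0.02. The medians of the mevalonate steps are at -0.04, -0.09 and -0.09 on the Batf-/- arrays. On the Batf+/+ arrays they are at -0.01, -0.03 and 0.10. Those of the desaturases and elongases are near 0 on Batf-/- arrays 2 and 3.

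Batf-/- array 3 also had the highest median of the 6 arrays for 6 of the 9 marker lists of other cell types and of proliferation. Of the genes of these lists 0 were called, where 1.14% of all genes were. The median of 7 measured macrophage and monocyte markers was 0.36 on it, against -0.08 to 0.09 on the Batf+/+ arrays and -0.14 and 0.08 on the other Batf-/- arrays, and all 7 were highest there. The median of 6 measured B cell markers was 0.34 on it, against -0.05 to 0.07 on the Batf+/+ arrays and 0.09 and 0.06 on the other Batf-/- arrays. Of these, 4 were highest there, from 0.34 (Ms4a1 and Cd79a) to 1.76 (Cd22), while Blk at 0.03 and Pax5 at -0.08 were not. Cd22 was also above every Batf+/+ array on Batf-/- arrays 1 and 2, at 0.52 and 0.43, and the genotypes overlapped in the rest of these B cell markers.

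The 2 measured natural killer cell markers had a median of 0.37 on Batf-/- array 3, against -0.17 to 0.14 on the other arrays, but they disagreed, with Eomes at 0.84 and Ncr1 at -0.09. On Batf-/- arrays 1 and 2 Eomes was at 0.10 and 0.20, above every Batf+/+ array, and Ncr1 was at -0.44 and 0.07. The medians on that array were 0.09 for 4 stromal markers and 0.08 for 2 CD8 T cell markers, against at most 0.05 on any other array. The 8 measured proliferation markers had medians of -0.10, -0.07 and 0.07 on Batf-/- arrays 1, 2 and 3 and of -0.03 to 0.00 on the Batf+/+ arrays. For the plasma cell, dendritic cell and erythroid markers another array had the highest median. The part of these cells in the sterol values was not tested, and whether any of these markers is near absent cannot be read from relative values.

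The sterol carriers and pumps pointed in different directions. Stard4, a carrier that moves cholesterol between membranes and a target of SREBP, had the largest difference and the smallest p of the 33 genes. It was at 0.05, -0.12 and 0.03 on the Batf+/+ arrays and at -0.09, -0.31 and -0.42 on the Batf-/- arrays. Batf-/- arrays 2 and 3 were below every Batf+/+ array, and array 1 was not. The log2 difference was -0.26 ± 0.10 (SE, n = 3 per genotype, limma adjusted p = 0.516, 95% interval -0.49 to -0.03), and its rank by p among the 18193 genes was 1057. Its 3 probe sets gave -0.44, -0.24 and -0.10.

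Abcg1 and Abca1, the pumps that hand cholesterol to lipoproteins, were above 0. Abcg1 was at 0.15, -0.04 and -0.23 on the Batf+/+ arrays and at 0.23, 0.11 and 0.06 on the Batf-/- arrays, so the groups overlapped. Its log2 difference was 0.18 ± 0.10 (SE, limma adjusted p = 0.870). Abca1 had a difference of 0.03 ± 0.09 (adjusted p = 0.9999), with a 95% interval of -0.17 to 0.23.

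Of the enzymes that make fatty acids from citrate, Fasn, the synthase that assembles palmitate, separated the genotypes. It was at 0.00, -0.03 and 0.00 on the Batf+/+ arrays and at -0.20, -0.07 and -0.17 on the Batf-/- arrays. All Batf-/- arrays were lower, with a difference of -0.14 ± 0.07 (SE, limma adjusted p = 0.802) that amounts to 1.1-fold and rests on 1 probe set. Acaca, the carboxylase that makes malonyl-CoA, had a like difference of -0.14 ± 0.08 (adjusted p = 0.850), with Batf-/- array 2 inside the Batf+/+ range. The citrate lyase Acly, measured by 6 probe sets, and the malic enzyme Me1, which supplies NADPH, lay at -0.01 ± 0.07 and 0.02 ± 0.08.

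The desaturases and elongases divided by gene, with 4 of the 7 below 0 and 0 called. Elovl5, which lengthens polyunsaturated fatty acids, was at -0.01, 0.02 and 0.01 on the Batf+/+ arrays and at 0.26, 0.34 and 0.01 on the Batf-/- arrays. Arrays 1 and 2 of the Batf-/- group were well above the Batf+/+ arrays and array 3 was level with them. The difference of 0.20 ± 0.10 (SE, limma adjusted p = 0.737) was the highest of the 33 genes, and both probe sets agreed on it, at 0.20 and 0.19.

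Elovl6, which lengthens palmitate to stearate, was at 0.02, -0.14 and -0.03 on the Batf+/+ arrays and at -0.11, -0.30 and -0.22 on the Batf-/- arrays. Arrays 2 and 3 of the Batf-/- group were the lowest, and the difference was -0.16 ± 0.08 (SE, limma adjusted p = 0.772). It came mainly from 1 of 3 probe sets, at -0.40, while the other two were at -0.05 and -0.04. Elovl1, which makes very long saturated fatty acids, had a difference of -0.16 ± 0.08 (adjusted p = 0.771), and all 4 of its probe sets were below 0, from -0.25 to -0.09.

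Fads1, a desaturase of polyunsaturated fatty acids, had a difference of -0.16 ± 0.09 (SE, limma adjusted p = 0.856) that hid 2 unlike probe sets. One gave -0.32, with 0.10, -0.04 and 0.00 on the Batf+/+ arrays and -0.39, -0.33 and -0.17 on the Batf-/- arrays. The other gave 0.00. Its partner Fads2 lay at -0.07 ± 0.08, and the stearoyl-CoA desaturases Scd1 and Scd2, which make monounsaturated fatty acids, lay at 0.07 ± 0.10 and 0.03 ± 0.07.

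Tested singly, 8 of the 81 probe sets had an unadjusted p below 0.05, where 6.9% of all probe sets did, and 0 were called over all probe sets. All 8 were lower in Batf-/- cells. They belong to Elovl6, Fads1, Fdft1, Cyp51, Elovl1, Hmgcs1 and, with 2, Stard4, and the lowest adjusted p was 0.348, for the Elovl6 probe set. In 12 genes the probe sets differed in sign.

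**Figure D4:**
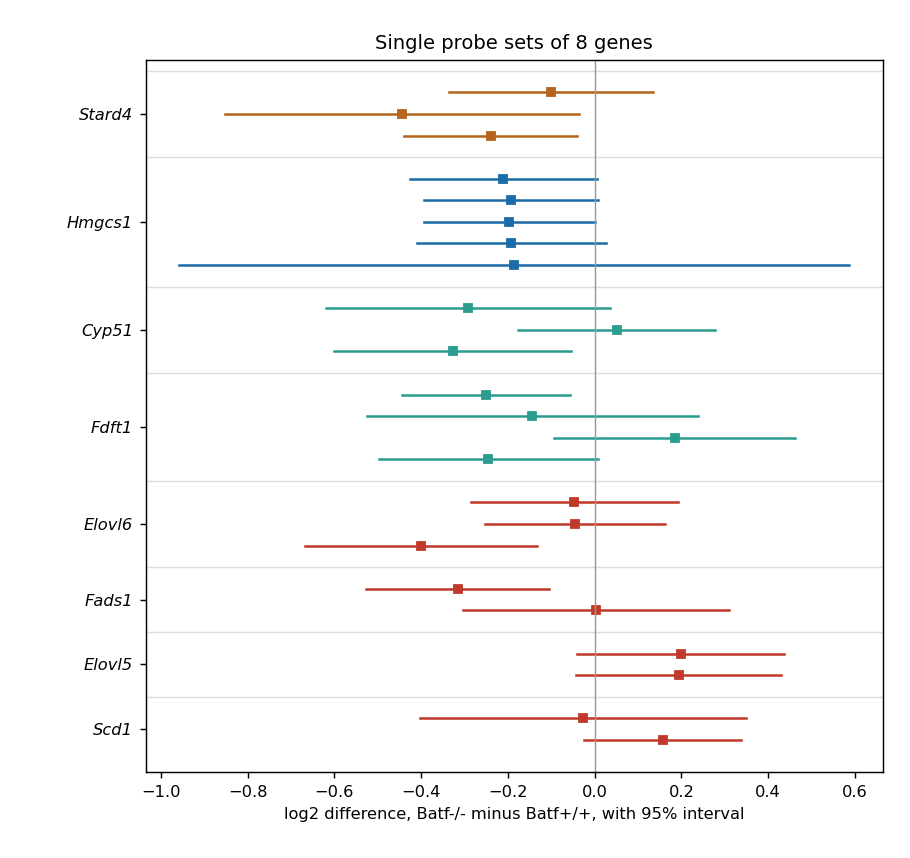
Log2 difference between genotypes (x axis, Batf-/- minus Batf+/+) of each probe set (squares) of 8 of the genes, with the 95% interval from limma as a line and colours by role as in the other plots. Hmgcs1 and Elovl5 have probe sets that agree in sign and size, while those of Fdft1 and Cyp51 lie on both sides of 0.

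Other genes of the pathway, from 3 lists fixed by name, showed 1 call among 45 measured genes, where 1.14% of all genes were called. None of 11 further genes of sterol synthesis and SREBP control was called (median log2 difference -0.03), nor any of 10 genes of sterol uptake, storage and LXR (median 0.02). The lowest limma adjusted p in these lists was 0.956 for Erlin1, a membrane protein of the endoplasmic reticulum, and 0.802 for Abcg2, a pump at -0.28 ± 0.15 (SE) whose lowest array was Batf-/- array 3, at -0.65.

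Of 24 further fatty acid genes, 1 passed the test, where 1.14% of all genes did. Hacd3, a dehydratase of the elongation cycle of very long fatty acids, was at 0.06, -0.06 and 0.05 on the Batf+/+ arrays and at -0.52, -0.46 and -0.41 on the Batf-/- arrays. The groups lay far apart relative to the spread within them. The difference of -0.48 ± 0.08 (SE, n = 3 per genotype, limma adjusted p = 0.0199) amounts to a 1.39-fold fall, and its 3 probe sets lay between -0.48 and -0.47. The call was lost when any 1 of the 3 Batf+/+ arrays, Batf-/- array 1 or Batf-/- array 2 was left out (adjusted p between 0.0590 and 0.0960), with quantile normalized values (0.174) and when probe sets of shared sequence were dropped (0.0619). In all of these the log2 difference stayed between -0.52 and -0.41. Quantile normalization also shrank the difference of Batf itself, from -2.89 to -2.01. Mid1ip1, which promotes the polymerisation of acetyl-CoA carboxylase, had a difference of -0.26 ± 0.08 (adjusted p = 0.331) with all 3 Batf-/- arrays below the Batf+/+ arrays, and was named after its value was seen.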

How the data were processed

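The deposited values were taken as log2. The authors used RMA according to the submitters' processing notes, where neither a version nor the log base is stated. The middle Batf+/+ value is 0 for all 45101 probe sets, so the values are relative to it, a step the labels do not record. Absolute levels, a filter on dim probe sets and signal over background are therefore lost.

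Probe sets annotated to 1 gene (34945) were averaged per gene. Genotypes were compared with limma 3.58.1 (R 4.3.3; lmFit, eBayes) over all 18193 genes with genotype as the only term, Benjamini-Hochberg adjustment and a threshold of 0.05. The code was tested on simulated data. Lists are described by counts and medians, with no set test. The members and lists were chosen with earlier results of these data known. Named in full were the genes of smallest p or largest difference in each role group, and called genes or the smallest p of the other lists, where 11 of 56 listed genes are not analysed here.

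Deviations from the group means of same-numbered arrays correlated across genes at 0.407, 0.154 and 0.413, above the 0.1 required, so the numbers in the titles were taken to pair the arrays. They were also fitted as a block, but standard errors, intervals and p-values are from the fit with genotype only unless another setting is named. Other alternatives were every probe set, probe sets without shared sequence, equal medians, quantile normalization, array weights, robust variance and each array left out. Quantile normalization suits these relative values poorly, because it gives every array the same spread. Values counted from the Batf+/+ arrays spread less on those arrays by construction. The standard deviation over probe sets was 0.12 to 0.17 on the Batf+/+ arrays and 0.23 to 0.26 on the Batf-/- arrays. Promoters come from a RefSeq table and were searched on both strands.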

Additional observations from a re-analysis of the deposited data

How the results depend on the processing

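In every alternative, the replicate block included, 0 of the 33 genes were called (lowest limma adjusted p of a member 0.196), and the block changed no call among the 33 genes, Batf and Hacd3. The block did change adjusted p, for example from 0.516 to 0.245 for Stard4 and from 0.782 to 0.316 for Hmgcs1 (limma). The median log2 difference of the 33 genes was -0.068 after quantile normalization and ranged from -0.10 to -0.060 with 1 array left out, the latter without Batf+/+ array 3. That of the enzymes from squalene to cholesterol was -0.072 after quantile normalization, and that of the desaturases and elongases 0.0017 when probe sets of shared sequence were dropped. In 25 genes the sign of the gene average held in every alternative that averages probe sets. Some of these, Fdft1 and Cyp51 among them, had single probe sets on both sides of 0.

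The sign changed for Mvk when probe sets of shared sequence were dropped (0.0077), for Me1 with quantile normalized values (-2.4e-05) and for Acly when arrays were weighted (0.0098). With 1 array left out it changed for 7 genes. Their values ranged from -0.035 to 0.076 for Srebf2 (below 0 without array 2 of either genotype), from -0.28 to 0.010 for Insig1 (above 0 without Batf-/- array 3), from -0.096 to 0.014 for Mvd (above 0 without Batf+/+ array 3), from -0.033 to 0.079 for Abca1 (below 0 without Batf+/+ array 2 or Batf-/- array 1), from -0.041 to 0.021 for Acly (above 0 without Batf+/+ array 3 or Batf-/- array 2), from -0.030 to 0.054 for Me1 (below 0 without Batf+/+ array 1 or Batf-/- array 2) and from -0.00026 to 0.14 for Scd1 (below 0 without Batf-/- array 3). The cause was not tested.

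Over all genes, 208 were called (151 lower, 57 higher), 76 (53 and 23) after quantile normalization and 293 (202 and 91) with the replicate block. How much of the fall after quantile normalization comes from its levelling of the spread was not tested. With 1 array left out there were 105 to 192 (73 to 141 lower and 31 to 51 higher). A filter on dim probe sets was not run because the values are relative. The number of arrays, 3 per genotype, limits the precision.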
